A study of Mus musculus with 10 samples.

Results

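The genes that carry amino acids, short peptides and monocarboxylates such as lactate across cell membranes were compared between the hippocampus of Dp1Rhr mice and that of their control littermates. They were the measured genes of the solute carrier families Slc7, Slc15, Slc16, Slc36, Slc38 and Slc43, 52 of the 19938 mouse genes with a probe set of their own on the array. These families were chosen by an earlier reading of the same arrays, in which Slc38a3 and Slc15a2 differed in opposite directions between Dp1Rhr and control. Within the families every gene entered by its symbol alone. The differences between the groups are therefore given below as a description, with no test, and they support nothing beyond themselves. Slc7a6os matched the symbol rule and is counted among the 52, although it is not a transporter.

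Dp1Rhr mice, a mouse model of partial trisomy used in Down syndrome research, carry a segment of chromosome 16 duplicated in tandem, with Cbr1 at its start and Fam3b at its end, so that each gene within it has an additional copy in every cell. The controls were mice without a duplication from the cross of the Dp5Yah and Dp1Rhr lines, and its other offspring are not part of the comparison. Each of the 10 arrays held RNA of the whole hippocampus, right and left together, of 1 male mouse of 16 weeks, with 5 mice in each group. The labels give a C57BL/6N background and the study's methods C57BL/6J, which leaves the substrain of these mice unsettled, and which mice shared a litter was not given. Values are the authors' normalised log2 signals from a whole-transcript microarray, so a difference of 1 is a doubling. A signal depends on the probes as well as on the transcript, so levels were compared between mice for a single gene and never between genes.

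Carriers of these families set what a cell can take up and release. In brain, astrocytes make glutamine from glutamate and release it through system N carriers, and neurons take it up through system A carriers and turn it back into transmitter. Lactate moves between glia, vessels and neurons through monocarboxylate transporters, large neutral amino acids cross the blood-brain barrier on heteromeric carriers that need a heavy chain, and the peptide carrier PepT2 clears di- and tripeptides from extracellular and cerebrospinal fluid.

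The 10 arrays were alike, with pairwise correlations across probe sets of 0.9956 to 0.9981. The labels were borne out by the duplicated segment, where 14 of the 20 genes with a mean signal above the 40th percentile of all genes were higher in Dp1Rhr at an adjusted p of 0.05 in limma, a linear model per gene with a variance shared across genes, none was lower, and the median difference was 0.34. Over all 31 measured genes of the segment the same 14 were called and the median was 0.21. Over both groups, mean log2 signals were 9.25 to 9.49 for dentate gyrus genes and 9.61 to 9.79 for genes of the CA pyramidal cells. These levels were not set against another tissue and do not by themselves identify the tissue. A pair of arrays stood apart. Choroid plexus markers, the genes of the epithelium that makes cerebrospinal fluid in the ventricle beside the hippocampus, averaged 6.77 in control replicate 2 and 6.94 in control replicate 3, against 8.15 to 8.80 in the other controls and 8.31 to 9.21 in Dp1Rhr. The transcript of transthyretin (Ttr), the hallmark of that epithelium, followed the same split, at 9.53 and 9.83 in those controls and 13.21 to 13.61 in all other arrays. All 14 measured choroid plexus markers had a higher mean in Dp1Rhr and none passed the test. The part of this tissue in the transporter differences was not tested as a cause, and the differences of the genes described array by array are given without those arrays where that bears on them. In whole tissue, fewer cells of a type and less RNA per cell cannot be told apart.

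Over all 52 genes the differences were small and ran both ways. The mean was higher in Dp1Rhr for 31 genes and lower for 21, and the median difference was 0.015, beside -0.0001 over all 19938 genes. Single genes ranged from -0.64 to 0.52, and 33 of the 52 differed by less than 0.1 in either direction. A difference over 0.2 in size was found for 12 of the 52 genes, or 23.1%, beside 3.93% of all genes. Without Slc38a3 and Slc15a2 it was 10 of 50, or 20.0%. Dim genes seldom differ by that much, and among genes above the 40th percentile of mean signal the count was 11 of 34, or 32.4%, beside 5.58% of all such genes. At an adjusted p of 0.05, with no cut on size or signal, the limma fit over all genes called 3 of the 52 higher, namely Slc38a3, Slc16a9 and Slc16a6, and 1 lower, Slc15a2. Over all genes 0.627% were called higher, 0.176% lower and 0.802% in either direction. The Dp1Rhr arrays lay entirely above the control arrays for 4 of the 52 genes and entirely below for 2, where 1.82% and 1.70% of all genes did so. The families were chosen on this contrast, so these calls are a description, and nothing is read from them.

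**Figure D1:**
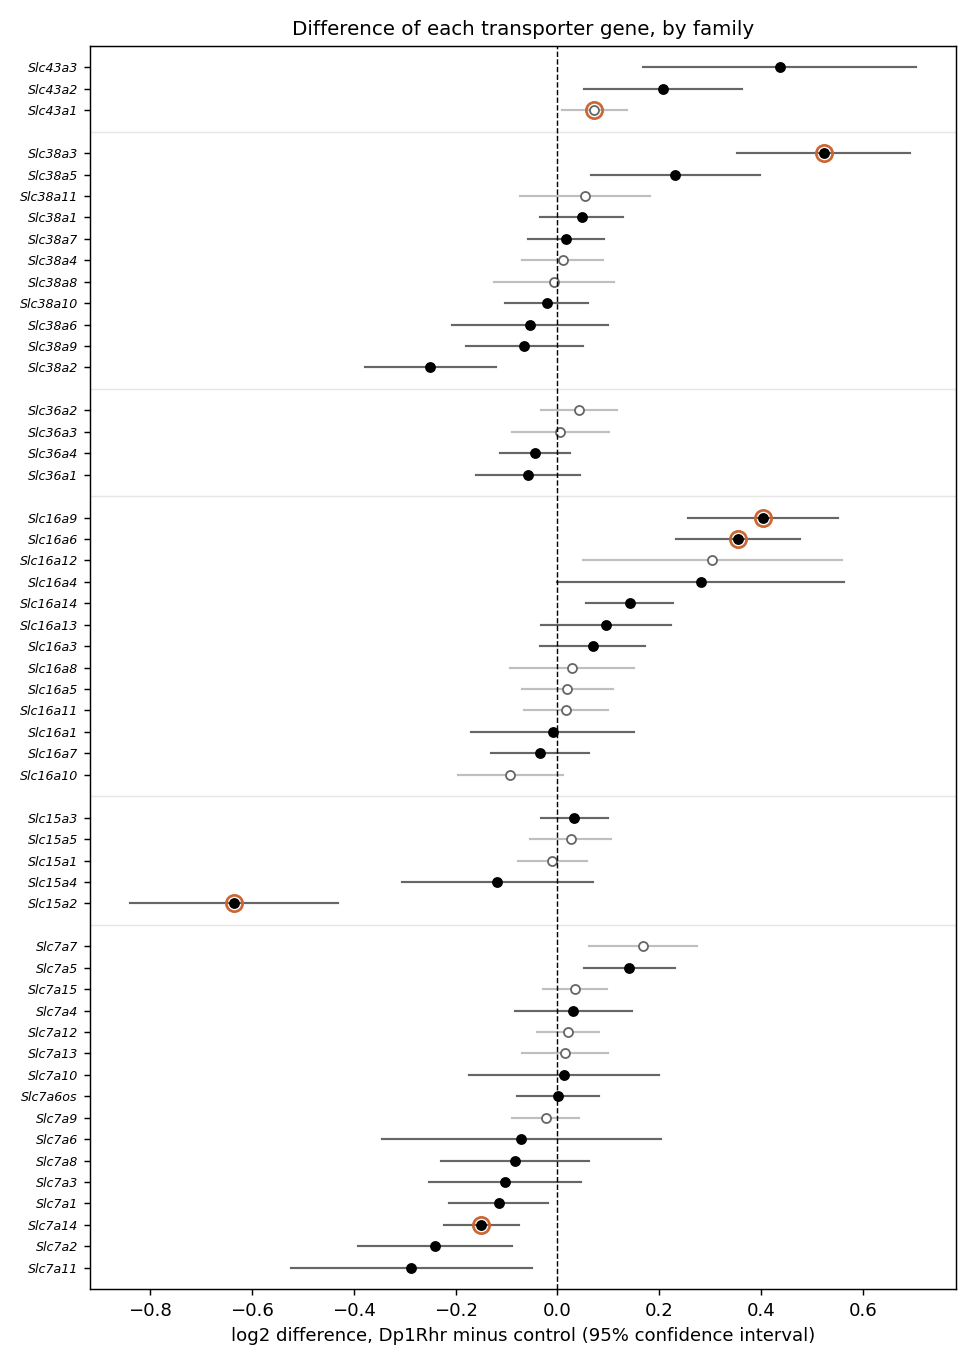
Difference of each of the 52 genes between Dp1Rhr and control, as the Dp1Rhr mean minus the control mean of log2 signals with its 95% confidence interval, grouped by family. Open circles mark dim genes, under the 40th percentile in mean signal, and ringed points are the 6 genes whose arrays did not overlap between groups. Most points lie near 0, with Slc38a3 at 0.52 and Slc15a2 at -0.64 at the ends.

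Slc38a3 had the highest difference of the 52. It encodes SNAT3, the system N carrier through which astrocytes release glutamine, and lies at chr9:107651154-107668968 of GRCm38, away from the duplicated segment. In the controls its log2 signal was 10.79, 10.62, 10.65, 10.61 and 10.60, a mean of 10.65 ± 0.08 (SD, n = 5). In Dp1Rhr it was 11.34, 11.24, 11.26, 11.17 and 10.86, a mean of 11.18 ± 0.19 (SD, n = 5). All Dp1Rhr arrays lay above all controls, with Dp1Rhr replicate 5 the nearest to them. The difference was 0.52 ± 0.08 (SE), or 1.44-fold. It was 0.51 without the controls poor in choroid plexus. With a choroid plexus score as a covariate, the mean of the markers each centred and scaled by its SD, it was 0.52. Leaving out each array in turn gave 0.48 to 0.60, and the call was lost without control 2, control 5, Dp1Rhr 1, Dp1Rhr 2 or Dp1Rhr 4.

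The rest of the Slc38 family held no other call. Of its 11 genes, 6 had a higher mean in Dp1Rhr and 5 a lower one, with a median of 0.01. Slc38a2 encodes SNAT2, a system A carrier that cells induce when amino acids are scarce. It read 11.35, 11.25, 11.47, 11.53 and 11.49 in control and 11.10, 11.16, 11.10, 11.16 and 11.33 in Dp1Rhr, a difference of -0.25 ± 0.06 (SE). Dp1Rhr replicate 5 reached into the control range and the other 4 Dp1Rhr arrays lay below it. Slc38a5, which encodes the second system N carrier SNAT5, read 7.12, 6.97, 6.93, 6.96 and 7.05 in control and 7.20, 7.10, 7.19, 7.14 and 7.55 in Dp1Rhr. Its difference was 0.23 ± 0.08 (SE), and the groups overlapped only between control 1 and Dp1Rhr 2. It was 0.15 without Dp1Rhr replicate 5, 0.19 without control replicates 2 and 3 and 0.14 with the choroid plexus covariate. Slc38a1, a system A carrier of neurons, differed by 0.05 ± 0.04 (SE). The lysosomal carriers Slc38a7 and Slc38a9, the latter an arginine sensor of the growth kinase complex mTORC1, differed by 0.02 and -0.06, with overlapping groups.

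**Figure D2:**
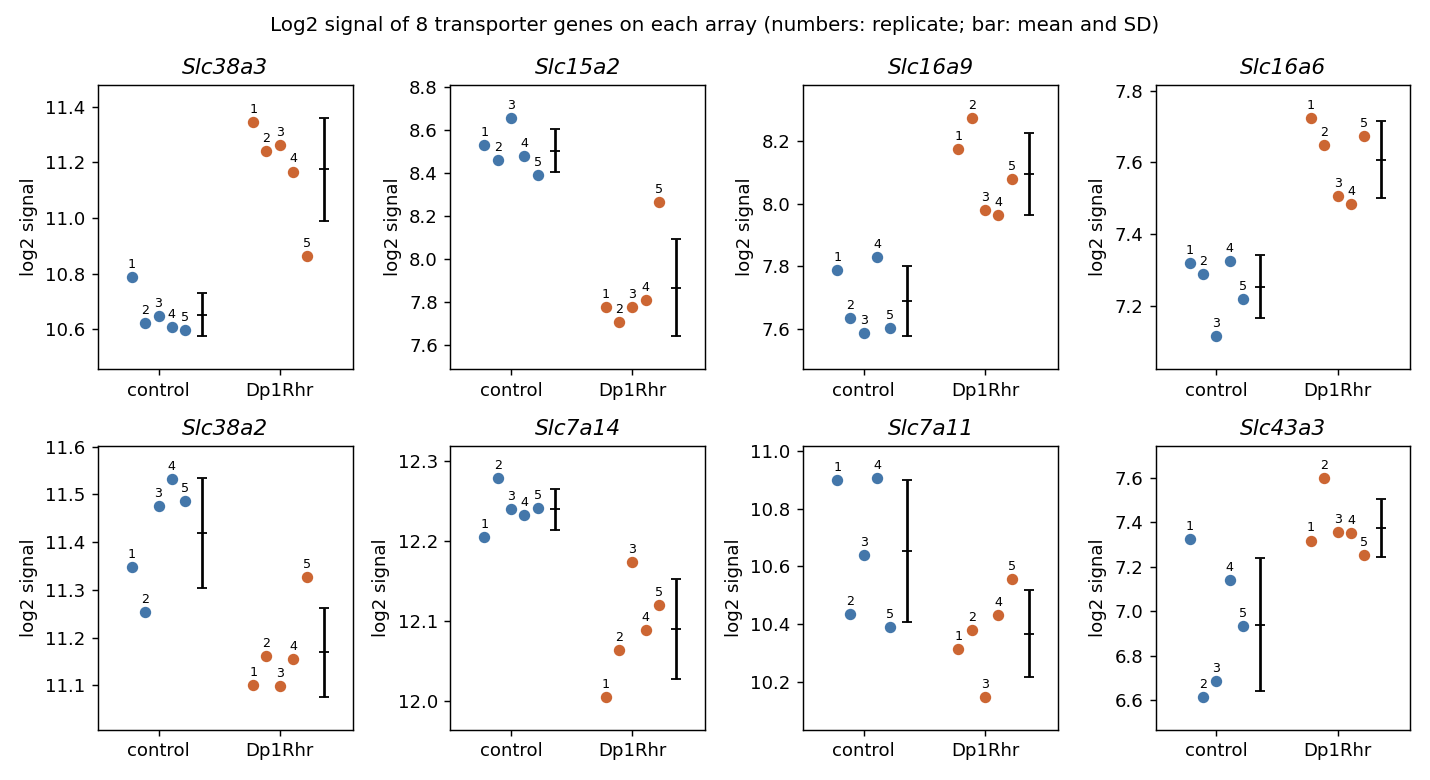
Log2 signal of 8 transporter genes on each of the 10 arrays, control in blue and Dp1Rhr in orange, with the replicate number at each point and a bar for the mean and SD of each group (each panel has its own axis, which does not start at 0). Slc38a3, Slc16a9 and Slc16a6 show all Dp1Rhr points above the controls, Slc15a2 and Slc7a14 show them below, and Dp1Rhr replicate 5 is the nearest to the controls in Slc38a3, Slc15a2 and Slc38a2.

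Slc15a2 had the lowest difference of the 52. It encodes PepT2, the high-affinity proton-coupled carrier of di- and tripeptides, known from astrocytes and from the choroid plexus. It lies on the same chromosome as the duplication, at chr16:36750161-36785158, but 56.8 Mb from the start of the duplicated segment at Cbr1 and outside it. The controls read 8.53, 8.46, 8.66, 8.48 and 8.39, a mean of 8.50 ± 0.10 (SD, n = 5). The Dp1Rhr arrays read 7.78, 7.71, 7.78, 7.81 and 8.26, a mean of 7.87 ± 0.23 (SD, n = 5). All Dp1Rhr arrays were below all controls, 4 of them in a narrow band and replicate 5 close to the control range. The difference was -0.64 ± 0.09 (SE), which is 0.644 of the control level. Without control replicates 2 and 3 it was -0.60, and with the choroid plexus score as a covariate it was -0.66. Leaving out each array in turn gave -0.74 to -0.60, and the call was lost without the same 5 arrays as for Slc38a3.

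The other peptide and histidine carriers did not show that pattern. Slc15a4, a lysosomal carrier of histidine and peptides, differed by -0.12 ± 0.09 (SE) with overlapping groups, and by -0.05 without control replicate 3 or -0.06 without Dp1Rhr replicate 3. Slc15a1, Slc15a3 and Slc15a5, named to complete the family, differed by -0.01, 0.03 and 0.03. Slc7a4, named for its position as the only other of the 52 genes on chromosome 16, also outside the duplication, differed by 0.03 ± 0.05 (SE).

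In the Slc16 family of monocarboxylate transporters 10 of 13 genes had a higher mean in Dp1Rhr, beside 49.9% of all genes. The median difference was 0.07, and 8 of the 13 differed by less than 0.1 in size. Slc16a9 encodes MCT9, a carnitine carrier, and lies at chr10:70245276-70285951. It read 7.79, 7.64, 7.59, 7.83 and 7.60 in control, a mean of 7.69 ± 0.11 (SD, n = 5), and 8.17, 8.27, 7.98, 7.96 and 8.08 in Dp1Rhr, a mean of 8.09 ± 0.13 (SD, n = 5). The groups did not overlap, and the difference was 0.40 ± 0.07 (SE), or 1.32-fold. A second probe set annotated to Slc16a9 read 4.78 in both groups, near the bottom of the scale, and with the mean of both probe sets the difference was 0.20. The call was lost without control 2, control 3, control 5, Dp1Rhr 1, Dp1Rhr 2 or Dp1Rhr 4, and the difference stayed between 0.36 and 0.44.

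Slc16a6, which encodes MCT7 and lies at chr11:109450855-109473598, had the same order of groups. Its signal was 7.32, 7.29, 7.11, 7.32 and 7.22 in control, a mean of 7.25 ± 0.09 (SD, n = 5), and 7.72, 7.65, 7.51, 7.48 and 7.67 in Dp1Rhr, a mean of 7.61 ± 0.11 (SD, n = 5). All Dp1Rhr arrays lay above all controls by 0.35 ± 0.06 (SE) in the mean, or 1.28-fold. Leaving out each array in turn gave 0.32 to 0.39, and the call was lost without control 2, control 5, Dp1Rhr 1 or Dp1Rhr 2. With the choroid plexus score as a covariate the difference was 0.27 for Slc16a6 and 0.29 for Slc16a9, and without control replicates 2 and 3 it was 0.32 and 0.35.

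The classical lactate carriers were close to even. Slc16a1 (MCT1, of vessels, astrocytes and oligodendrocytes) differed by -0.01 ± 0.07 (SE), Slc16a3 (MCT4, of astrocytes) by 0.07 ± 0.05 (SE) and Slc16a7 (MCT2, of neurons) by -0.03 ± 0.04 (SE). The groups overlapped for each of these genes, and the 95% intervals, of -0.17 to 0.15, -0.03 to 0.17 and -0.13 to 0.06, held 0.

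Slc16a4 and Slc16a12, a creatine transporter, had higher means in Dp1Rhr with overlapping groups. Slc16a4 read 7.37, 6.70, 6.65, 6.84 and 6.81 in control and 7.16, 7.27, 7.00, 6.94 and 7.41 in Dp1Rhr. The difference was 0.28 ± 0.13 (SE), and control replicate 1, an array rich in choroid plexus markers, lay among the Dp1Rhr arrays. Without control replicates 2 and 3 it was 0.15, and with the choroid plexus score as a covariate it was 0.02. Slc16a12, a dim gene named here after its values were seen, read 6.59, 6.11, 6.05, 6.48 and 6.20 in control and 6.63, 6.78, 6.36, 6.40 and 6.78 in Dp1Rhr, a difference of 0.30 ± 0.12 (SE). It was 0.17 without control replicates 2 and 3 and 0.04 with the covariate. In both genes the lowest signals were those of control replicates 2 and 3.

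**Figure D3:**
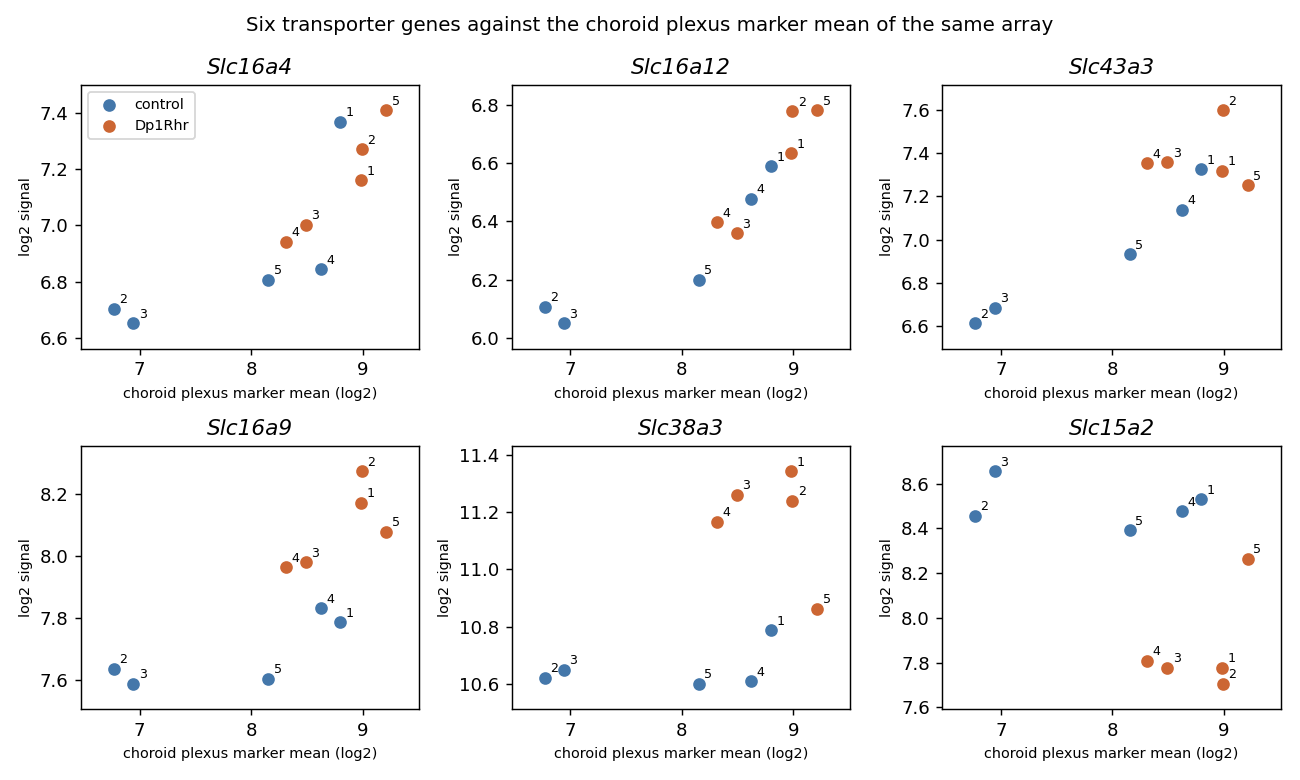
Log2 signal of 6 transporter genes (vertical axis) against the mean log2 signal of 14 choroid plexus markers on the same array (horizontal axis), 1 point per mouse with its replicate number, control in blue and Dp1Rhr in orange. Control replicates 2 and 3 sit apart at 6.77 and 6.94 in every panel, where Slc16a4, Slc16a12 and Slc43a3 have their lowest signals.

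In the 3 Slc43 genes, which encode carriers of large neutral amino acids and of adenine, every mean was higher in Dp1Rhr. Slc43a3, the adenine carrier, read 7.33, 6.61, 6.69, 7.14 and 6.93 in control and 7.32, 7.60, 7.36, 7.35 and 7.25 in Dp1Rhr. The difference was 0.44 ± 0.12 (SE), and control replicate 1 lay within the Dp1Rhr range. It was 0.24 without control replicates 2 and 3 and 0.20 with the choroid plexus covariate. Slc43a2, which encodes the neutral amino acid carrier LAT4, read 8.26, 8.55, 8.41, 8.48 and 8.44 in control and 8.66, 8.76, 8.65, 8.71 and 8.38 in Dp1Rhr, a difference of 0.21 ± 0.07 (SE). Here 4 Dp1Rhr arrays lay above all controls and replicate 5 lay among them. Slc43a1, which encodes LAT3, was dim, at 5.65 to 5.76 in control and 5.78 to 5.84 in Dp1Rhr. Its groups did not overlap, with a difference of 0.07 ± 0.03 (SE).

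Of the 16 Slc7 genes, 8 had a higher mean in Dp1Rhr and 8 a lower one, and none was called. Slc7a14, an orphan member of the cationic amino acid branch, read 12.21, 12.28, 12.24, 12.23 and 12.24 in control and 12.00, 12.06, 12.17, 12.09 and 12.12 in Dp1Rhr. All Dp1Rhr arrays lay below all controls, although the difference was only -0.15 ± 0.03 (SE). Slc7a2, a cationic amino acid transporter that brings in arginine, read 9.24, 9.05, 9.09, 9.22 and 9.05 in control and 8.73, 8.90, 8.85, 8.83 and 9.14 in Dp1Rhr. Its difference was -0.24 ± 0.07 (SE), and replicate 5 was the only Dp1Rhr array within the control range. The related carriers Slc7a1 and Slc7a3 differed by -0.12 ± 0.04 (SE) and -0.10 ± 0.07 (SE) with overlapping groups, the latter by -0.06 without control replicate 2 and -0.04 without Dp1Rhr replicate 2.

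Slc7a11 encodes xCT, which exports glutamate in exchange for cystine and feeds glutathione synthesis. It read 10.90, 10.44, 10.64, 10.90 and 10.39 in control and 10.32, 10.38, 10.15, 10.43 and 10.56 in Dp1Rhr, a difference of -0.29 ± 0.11 (SE). Controls 2 and 5 lay within the Dp1Rhr range. The difference was -0.36 without control replicates 2 and 3 and -0.45 with the choroid plexus covariate, so it was larger in both. Markers of the meninges averaged 8.16, 7.65, 7.83, 8.12 and 7.65 in the controls, high and low in the same arrays as Slc7a11. In Dp1Rhr they averaged 8.08, 8.09, 7.95, 8.08 and 8.13, with replicate 3 the lowest and replicate 5 the highest for both. The part of that tissue in the Slc7a11 difference was not tested.

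The heteromeric carriers of neutral amino acids were mixed. Slc7a5, the LAT1 carrier of the blood-brain barrier, read 10.83, 10.77, 10.86, 10.86 and 10.74 in control and 10.96, 10.99, 10.99, 11.01 and 10.82 in Dp1Rhr. The difference was 0.14 ± 0.04 (SE), and again only Dp1Rhr replicate 5 lay among the controls. Slc7a8 (LAT2) differed by -0.08 ± 0.07 (SE) and Slc7a10 (Asc-1, a carrier of serine and glycine) by 0.01 ± 0.08 (SE). Slc7a7, a dim gene named after its values were seen, differed by 0.17 ± 0.05 (SE). The 4 genes of the proton-coupled Slc36 family stayed between -0.06 and 0.04, with Slc36a1 at -0.06 ± 0.05 (SE) and Slc36a4 at -0.04 ± 0.03 (SE).

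Low signal covered a share of the families. A mean signal below the 40th percentile of all genes was found for 18 of the 52, and 16 of these differed by less than 0.1, the exceptions being Slc16a12 and Slc7a7. Array signals at this level do not show whether such genes are expressed.

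Replicate 5 of Dp1Rhr was the mutant array nearest to the control mean in 7 of the 12 genes with a difference over 0.2, or 58.3%. Among all 784 genes with a difference of that size it was the nearest in 36.2%, and Dp1Rhr replicate 3 was the nearest in 34.1%. Without Dp1Rhr replicate 5 the differences were 0.60 for Slc38a3 and -0.74 for Slc15a2. In that fit 9 of the 52 genes were called in place of 4, and 284 of all 19938 genes in place of 160.

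**Figure D4:**
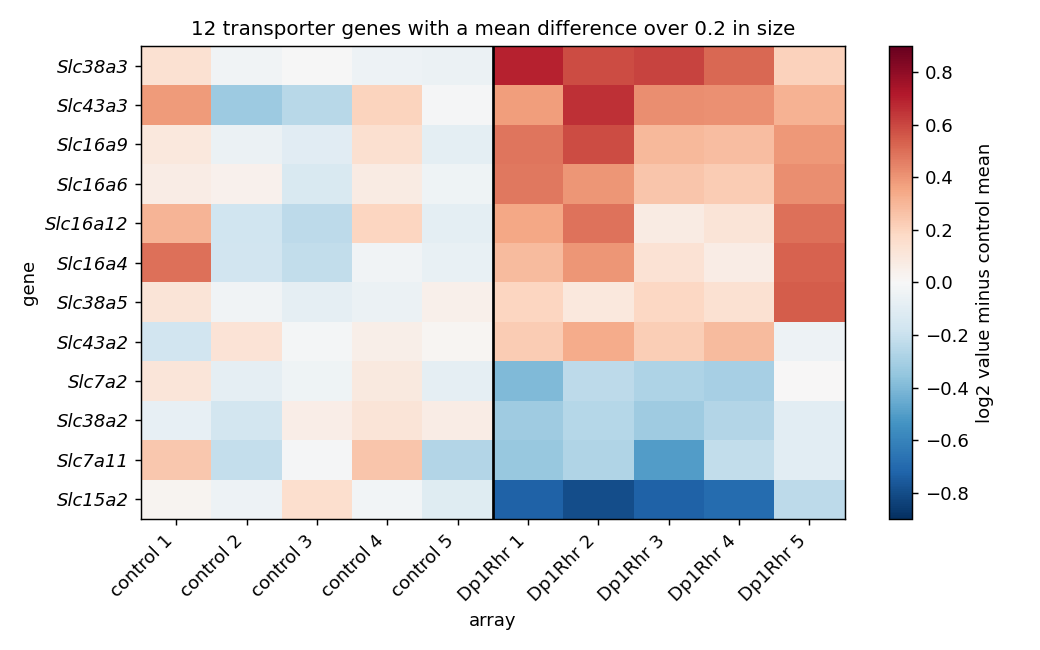
Log2 value of each array minus the control mean (colour scale, red above and blue below) for the 12 transporter genes with a mean difference over 0.2 in size, in rows ordered by that difference, with control arrays left of the line and Dp1Rhr arrays right of it. The column of Dp1Rhr replicate 5 is paler than the other Dp1Rhr columns for Slc38a3, Slc43a3, Slc43a2, Slc7a2, Slc38a2, Slc7a11 and Slc15a2. It is deeper for Slc38a5 and Slc16a4.

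Promoter windows from RefSeq (GRCm38.p6), from 250 bases before to 50 bases after a start site, were on hand for 37 of the 52 genes, 48 windows in all. Upstream sequence is shown for 1 gene higher and 1 lower in Dp1Rhr whose window begins at the outer start of the gene, Slc16a9 at chr10:70245026-70245275 (plus strand) and Slc38a2 at chr15:96699729-96699978 (minus strand). Both run 5′ to 3′ over the 250 bases before the start, and capitals mark the motifs searched.
Slc16a9: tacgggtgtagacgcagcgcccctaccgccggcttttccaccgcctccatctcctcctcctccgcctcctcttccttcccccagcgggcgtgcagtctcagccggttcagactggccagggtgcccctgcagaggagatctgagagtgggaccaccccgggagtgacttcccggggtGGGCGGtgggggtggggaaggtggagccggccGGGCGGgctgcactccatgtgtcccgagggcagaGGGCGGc
Slc38a2: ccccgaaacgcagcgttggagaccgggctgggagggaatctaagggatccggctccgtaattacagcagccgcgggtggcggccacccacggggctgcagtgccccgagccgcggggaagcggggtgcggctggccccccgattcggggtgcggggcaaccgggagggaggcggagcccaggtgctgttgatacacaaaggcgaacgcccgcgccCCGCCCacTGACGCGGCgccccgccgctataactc
Slc16a9 is 70.4% G and C here and holds 3 GC boxes, GGGCGG, the motif bound by Sp1, beginning 73, 41 and 7 bases before the start. Slc38a2 is 72% G and C and holds 1 GC box on the opposite strand, which begins 35 bases before the start. It also holds TGACG, the core of the cyclic AMP response element, 27 bases before the start, within the same letters as the antioxidant response motif TGACNNNGC. Slc16a4 and Slc38a5, both higher in Dp1Rhr, had a window of the same kind that is not shown. Their upstream sequence was 48% and 55.2% G and C. Slc16a4 held no motif of those searched, and Slc38a5 held a GC box and CACGTG.

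GC boxes were found on either strand in 58.3% of the 48 windows and in 35.7% of 32851 windows of all genes. The windows of the transporters had a median of 58.3% G and C with 14 CpG sites, and all windows had 52.7% with 7. The core of the amino acid response element, TGATGNAA, through which ATF4 acts on carriers and enzymes in amino acid scarcity, was in 8.33% of the transporter windows and 3.97% of all. TGACG was in 22.9% and 20.8%, TGACGTCA, which contains it, in 2.08% and 1.79%, TGACNNNGC in 16.7% and 12.4%, and CACGTG in 14.6% and 7.15%. A match of letters is a description and not a binding site. Windows for Slc38a3 and Slc16a6 were not among those used here.

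Genes that work with these carriers were then tested in the same fit with p-values adjusted over all 19938 genes. The choice of families did not use them, but their lists were made with earlier results of these arrays known, so they are not an independent set. Of 122 listed genes 117 were measured, and 1 passed, lower in Dp1Rhr. Their median difference was -0.0012, and 5.98% differed by more than 0.2 in size, beside 3.93% of all genes. Among all genes above the 40th percentile of mean signal that share was 5.58%. At an unadjusted p of 0.05, 28 of the 117 passed, beside 2990 of 19938.

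The gene that passed was Sesn2, which encodes a leucine sensor that restrains mTORC1 when leucine is scarce. Sesn2 read 7.64, 7.76, 7.82, 7.71 and 7.55 in control and 7.46, 7.42, 7.55, 7.40 and 7.43 in Dp1Rhr. All Dp1Rhr arrays were below all controls, and the gene differed by -0.24 ± 0.05 (SE; limma, adjusted p = 0.0494). The call stood close to the threshold, since it was lost when any array other than Dp1Rhr replicate 3 was left out, with adjusted p-values of 0.0565 to 0.136, and the adjusted p was 0.204 with the choroid plexus covariate. None of the other genes of amino acid sensing by mTORC1 passed. Castor1, an arginine sensor named after its values were seen, gave 0.28 ± 0.07 (SE; limma, adjusted p = 0.0896).

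Subunits that accompany the carriers to the membrane did not pass. The heavy chain of LAT1 and xCT, Slc3a2, differed by 0.05 ± 0.04 (SE; limma, adjusted p = 0.618), and the ancillary subunit of the lactate carriers, Bsg, by 0.10 ± 0.03 (SE; limma, adjusted p = 0.157). Emb, the other such subunit, named after its values were seen, was at 8.85 to 9.39 in control and 9.28 to 9.60 in Dp1Rhr, a difference of 0.32 ± 0.10 (SE; limma, adjusted p = 0.161). Its lowest arrays were again control replicates 2 and 3, and without them the difference was 0.17.

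The glutamate and glutamine cycle around Slc38a3 and Slc38a2 held no call either. Slc1a2, the main glutamate transporter of astrocytes, was at 12.95 to 12.99 in control and 12.82 to 12.90 in Dp1Rhr, with no overlap, and a difference of -0.10 ± 0.03 (SE; limma, adjusted p = 0.0941). Glud1, glutamate dehydrogenase, differed by -0.16 ± 0.04 (SE; limma, adjusted p = 0.0890), and Glul, the glutamine synthetase of astrocytes, named for that role, by -0.03 ± 0.03 (SE; limma, adjusted p = 0.785). Among vesicular transporters, Slc17a8, which encodes VGLUT3 of a subset of interneurons and of serotonergic fibres, gave 0.31 ± 0.07 (SE; limma, adjusted p = 0.0577) with no overlap. The glycine transporter Slc6a9 differed by -0.13 ± 0.03 (SE; limma, adjusted p = 0.0985) and the mitochondrial glutamate carrier Slc25a18 by -0.12 ± 0.05 (SE; limma, adjusted p = 0.320), the latter by -0.07 without Dp1Rhr replicate 3.

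The remaining lists held no call. Of 12 enzymes of lactate and pyruvate, Pdk1, which restrains pyruvate dehydrogenase, had the smallest p, with 0.14 ± 0.05 (SE; limma, adjusted p = 0.169). Among 9 enzymes of peptides and dipeptides it was Carns1, which makes carnosine, a dipeptide that PepT2 carries, with 0.09 ± 0.03 (SE; limma, adjusted p = 0.198). Among 20 genes of the ATF4 response to amino acid scarcity 15 had a lower mean in Dp1Rhr, with a median of -0.02. The smallest p was that of the sensor kinase Eif2ak4, at -0.14 ± 0.05 (SE; limma, adjusted p = 0.170). Ddit4 of that list, named after its values were seen, was lower without overlap, at -0.26 ± 0.09 (SE, limma adjusted p = 0.173).

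**Figure D5:**
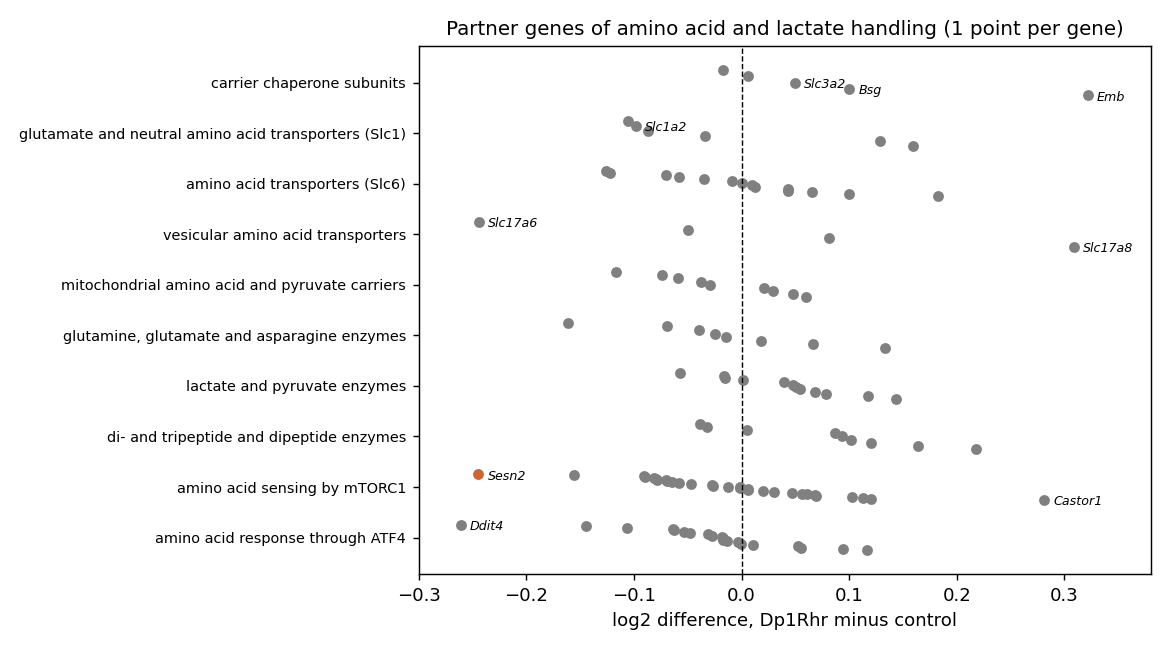
Difference between Dp1Rhr and control on the log2 scale (horizontal axis) for each of the 117 measured partner genes, 1 point per gene, in rows by list. The orange point is Sesn2, at -0.24 the only gene of these lists with a limma adjusted p under 0.05.

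Markers of other cell types were set beside these results. The mean of 14 astrocyte markers was 10.88 to 11.02 in control and 10.90 to 10.97 in Dp1Rhr, with 9 of the 14 higher in the mean in Dp1Rhr and a median difference of 0.04. In that list 1 gene, Fgfr3, passed, at -0.37 ± 0.07 (SE; limma, adjusted p = 0.0471), and Agt gave -0.54 ± 0.13 (SE; limma, adjusted p = 0.0739) with no overlap. Oligodendrocyte markers averaged 11.02 to 11.17 and 11.14 to 11.32, endothelial markers 9.21 to 9.42 and 9.33 to 9.46, and microglial markers 8.90 to 9.08 over both groups. All 9 measured oligodendrocyte markers had a higher mean in Dp1Rhr, with a median difference of 0.14. The same held for 7 of 10 endothelial and 7 of 9 microglial markers, and none of these was called. Ependymal markers averaged 6.79 to 7.17 in control and 7.15 to 7.47 in Dp1Rhr, with all 8 higher in the mean and none called. Meningeal markers averaged 7.65 to 8.16 in control and 7.95 to 8.13 in Dp1Rhr, with 11 of 13 higher in the mean and none called. Of 4 blood markers 2 were measured, and Alas2, an enzyme of haem synthesis in red cells, was higher by 0.67 ± 0.11 (SE; limma, adjusted p = 0.0304), while Slc4a1 differed by 0.01. Of 8 dentate gyrus markers 1 passed, Tdo2, at 0.25 ± 0.04 (SE; limma, adjusted p = 0.0210). Markers of habenula and thalamus, which border the hippocampus, averaged 8.43 to 8.69 in control and 8.40 to 8.98 in Dp1Rhr, with Dp1Rhr 2 and 4 at 8.92 and 8.98 and the other Dp1Rhr arrays at or below 8.66. Of that list 7 of 10 genes had a higher mean in Dp1Rhr, with a median difference of 0.10 and none called. The list ran both ways, with Tac2 at 1.10 ± 0.46 (SE; limma, adjusted p = 0.276). Tcf7l2 gave -0.86 ± 0.22 (SE; limma, adjusted p = 0.0901), the lowest difference of all 19938 genes. The part of these cell types in the transporter differences was not tested.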

How the data were processed

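Hippocampal RNA of 5 Dp1Rhr and 5 control male mice was measured on 10 Mouse Gene 1.0 ST arrays (Affymetrix), with 1 mouse on each. The deposited values are log2 signals that the authors obtained by RMA (background correction, quantile normalisation and summarisation of probes). The processing notes name RMA, limma and mm10 without versions, and which arrays were normalised together was not given in the sources used here. Groups were taken from the labels, which call the samples biological replicates.

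Probe sets were named with the platform annotation. Of 35556 probe sets 21789 had 1 gene symbol and were used, 1621 had several and 12146 were not listed. The brightest probe set by the mean of the 10 arrays stood for a gene, which left 19938 genes. The 52 transporter genes matched Slc7, Slc15, Slc16, Slc36, Slc38 or Slc43 followed by a member number, had 55 probe sets, and all had a RefSeq match, from which coordinates (GRCm38.p6) were copied. A linear model was fitted per gene (limma 3.58.1 in R 4.3.3, lmFit and eBayes, two-sided) over all 19938 genes, with Benjamini-Hochberg adjustment and a threshold of 0.05. Errors are the SE of that fit. FCROS, the rank method of the study, was run as an alternative (trim 0.25, f-value limits 0.025 and 0.975). Further alternatives were a replicate block, other normalisations, the mean of probe sets, a filter on dim genes, other variance models, array weights, a choroid plexus covariate and leaving out arrays. The fit was tested on simulated data. The number of arrays limits the precision.

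The genes, partner lists, marker lists and alternatives were chosen with earlier results of these arrays known. Described array by array or with their values were Slc38a3, Slc15a2, every gene without overlap between groups, the 6 highest and 6 lowest differences above the 40th percentile of signal, and a set with known roles in brain. Of each partner list the genes called and the gene with the smallest p were given, and Slc3a2 and Bsg belonged to the set with known roles. Names outside this rule were chosen after their values were seen.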

Additional observations from a re-analysis of the deposited data

Results flagged for a closer look

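Single arrays far from the other 4 of their group were sought in 54 groups, the 27 described genes in control and Dp1Rhr, by the gap to the nearest array over the range of the group. They were found in 10 of the 54. Chance alone flags about 1 group in 20, and the causes were not tested.

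Replicate 5 was the far array in 4 of the 7 Dp1Rhr groups. It read 8.26 for Slc15a2, where the next array read 7.81, and 11.33 for Slc38a2, where the next read 11.16. It was also the highest for Slc38a5, at 7.55 with the next at 7.20, and the lowest for Slc7a5, at 10.82 with the next at 10.96. For Slc15a2, Slc38a2 and Slc7a5 it lay towards the controls, and for Slc38a5 away from them.

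Control replicate 1 stood out for Slc38a3, at 10.79 with the next control at 10.65, and for Slc16a4, at 7.37 with the next at 6.84. In Slc38a3 it still lay below every Dp1Rhr array. Slc43a1 was flagged in both groups, with control 3 at 5.65 below the next at 5.74 and Dp1Rhr 3 at 5.84 above the next at 5.80, on a dim gene where such gaps are small. The last 2 were Slc7a3 in Dp1Rhr 2, at 6.68 below the next at 6.94, and Slc16a7 in Dp1Rhr 3, at 10.20 above the next at 10.07.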

How the results depend on the processing

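Of the 4 transporter genes called, none stayed called without control replicates 2 and 3 or with the choroid plexus covariate, and FCROS called 14, among 1075 of all genes (5.39%). The count ran from 0 to 9 over the 10 fits that left out 1 array each, with 0 without control 2, control 5, Dp1Rhr 1 or Dp1Rhr 2, and 9 without Dp1Rhr 5. The calls over all genes moved alike, from 160 to 5 without control replicates 2 and 3, to 7 with the covariate, and to between 5 and 284 without single arrays. The differences of Slc38a3 and Slc15a2 kept their sign in every alternative run. The median of the transporter genes was 0.0081 to 0.0198 without single arrays and -0.0043 over the 34 genes left without dim genes. Of 584 values of the other named transporter genes under the alternatives 580 moved by less than the spread between mice. Another sign was found in 18 values of 7 genes, all of which differed by 0.065 or less with all arrays. The 4 that moved more were Slc16a9, to 0.20 with the mean of its probe sets, averaged with a dim second probe set, and with the choroid plexus covariate Slc43a3, to 0.20, Slc16a4, to 0.02, and Slc16a12, to 0.04. Partner genes called went from 1 to 0 without control replicates 2 and 3, with median centring (Sesn2 adjusted p 0.0758, limma) and with the covariate, to 2 with dim genes left out or array weights, to 3 with a trended robust variance, and to 7 with FCROS. Slc17a8 passed with dim genes left out, a trended robust variance or array weights, and Slc1a2 with the trended robust variance (limma, adjusted p 0.0399 to 0.0460). They ranged from 0 to 2 without single arrays. The causes were not tested.

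Both groups carry replicate numbers, and the deviations from the group means of same-numbered arrays correlated at 0.12, -0.33, -0.34, -0.08 and 0.07. Such correlations cannot show whether same-numbered mice shared a litter, and no pairing was assumed in the main fit. With a replicate block 0 transporter genes, 0 partner genes and 4 of all genes were called, and the differences were the same by construction.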
